A study of Mus musculus with 167 samples.

Results

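MicroRNA (miRNA) levels were compared in the erythrocyte (RBC) fraction of blood between C57 mice that had received whole thorax lung irradiation (WTLI) and sham-irradiated C57 mice. The 20 libraries were the RBC libraries of strain C57Bl/6 in the deposited counts, 5 irradiated and 15 sham, out of 167 libraries in the series. WTLI was 1 local dose to the thorax while shields covered other regions, and both groups were sampled in month 6 after the exposure. Each library came from a separate animal, so that p-values describe the spread between mice. The irradiated group held 4 males and 1 female and the sham group 8 males and 7 females. The titles also carried a letter A or B of unstated meaning: the irradiated mice were 2 males of letter A, 2 males of letter B and 1 female of letter B, and the sham mice were 4 males of each letter, 4 females of letter A and 3 females of letter B. No irradiated female of letter A was present. Per the study's methods only mice that lived to the end point gave these samples, the blood was a terminal bleed from the heart, and centrifugation separated it into plasma and cells. The irradiated group was therefore a group of survivors. How RBC and WBC were parted from each other was not given in the sources used here.

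MiRNAs are short RNAs that guide a silencing complex to messenger RNAs, mainly through bases 2 to 8 of the miRNA, the seed. Erythrocytes lose their nucleus as they mature but keep miRNAs, and miR-451a and miR-144, made from 1 primary transcript under the erythroid factor GATA1, are known as miRNAs of red cell development. The thorax dose reaches the heart, the lungs, part of the marrow and the blood that passes through the chest, and the comparison asks whether the RBC fraction of surviving mice differed from that of sham mice months later.

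The mature sequences below are those on which the results turn, taken from RefSeq (build GRCm38.p6), which matched 198 of the 229 miRNAs tested. Seed bases 2 to 8 are in capitals. The miR-183 cluster (miR-183, miR-96 and miR-182) led the comparison. MiR-196b-5p did not lead it, and came first only in fits with sex and title letter as a covariate. Those fits were added after the values were seen. MiR-103-3p, near-identical to miR-107-3p and with the same seed, led among abundant miRNAs, and miR-296-5p was lower. MiR-16-5p, the most abundant miRNA, shares its seed with miR-322-5p.
miR-182-5p: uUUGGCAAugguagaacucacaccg
miR-96-5p: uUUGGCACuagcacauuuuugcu
miR-183-5p: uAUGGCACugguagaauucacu
miR-196b-5p: uAGGUAGUuuccuguuguuggg
miR-103-3p: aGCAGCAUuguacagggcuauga
miR-107-3p: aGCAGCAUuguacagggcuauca
miR-296-5p: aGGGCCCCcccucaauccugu
miR-16-5p: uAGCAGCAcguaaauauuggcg
miR-322-5p: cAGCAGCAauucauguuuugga
miR-451a: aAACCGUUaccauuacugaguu

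The cluster lay on the minus strand of chromosome 6, with miR-182-5p at chr6:30165962-30165986, miR-96-5p at chr6:30169506-30169528 and miR-183-5p at chr6:30169711-30169732, in no annotated gene other than the miRNA genes. MiR-196b-5p was at chr6:52230129-52230150, inside an annotated exon of the Hoxa9 locus on the same strand. MiR-103-3p has copies in introns of Pank2 and Pank3, and miR-107-3p lies in an intron of Pank1 at chr19:34820700-34820722.

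The libraries held 3058600 to 4702290 miRNA reads in the sham group and 3408030 to 4386750 in the irradiated group. The difference in mean total, 161541 reads, was within the spread between mice (exact permutation test over 15504 splits, two-sided, p = 0.529, adjusted p = 0.735), as was that in detected miRNAs, with means of 400.5 and 396.8 (p = 0.735). One read was worth 0.213 to 0.327 reads per 1000000 miRNA reads (RPM), so that miRNAs below about 5 RPM rested on few reads. The 229 miRNAs that passed the count filter took over 99.9% of the reads in every library. The libraries stood apart by label: miR-16-5p took 36.8 to 38.5% of reads in the 3 sham and 38.5% in the 1 irradiated female of letter B, against 45.9 to 55.9% in the other sham libraries and 47.2 to 52.5% in the irradiated males. Sham replicate 13, 1 of these females, had the most detected miRNAs (472) and also carried 32.7 RPM of miR-216a-5p, whose median over sham mice was 0 RPM. The calls were counted with and without these libraries.

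The RBC fraction was dominated by a few miRNAs, and none of them passed the test between the groups. MiR-16-5p, which represses cell cycle and survival genes such as cyclins and Bcl2, took 48.5% ± 6.33 of reads in sham mice (SD, n = 15) and 47.5% ± 5.56 in irradiated mice (SD, n = 5). The 6 tested miRNAs with its seed AGCAGCA together held 48.7% in sham and 47.7% in irradiated mice, and the 9 let-7 members with the seed GAGGUAG, repressors of Ras and Lin28, held 22.8% and 24.5%. The fitted log2 difference of let-7i-5p was 0.08 (95% interval -0.14 to 0.29), that of let-7f-5p 0.02 (-0.22 to 0.26), that of miR-93-5p -0.06 (-0.38 to 0.26) and that of miR-25-3p 0.09 (-0.11 to 0.30). These intervals lay within 1.5-fold either way, but sex moved with the level of let-7i-5p. In males, the 4 irradiated mice were at 112608 to 132559 RPM, above the 73932 to 103754 RPM of the 8 sham mice, while sham females reached 181525 RPM. The limma log2 difference in C57 males alone was 0.14 (adjusted p = 0.885). Quantile normalisation gives the most abundant miRNA nearly the same value in every library, so the fit could not show a difference in miR-16-5p. The same limit bears on let-7i-5p, the next most abundant in most libraries, so its narrow interval partly reflects the method. Its mean RPM in males was 92641 in sham and 123281 in irradiated mice.

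**Figure D1:**
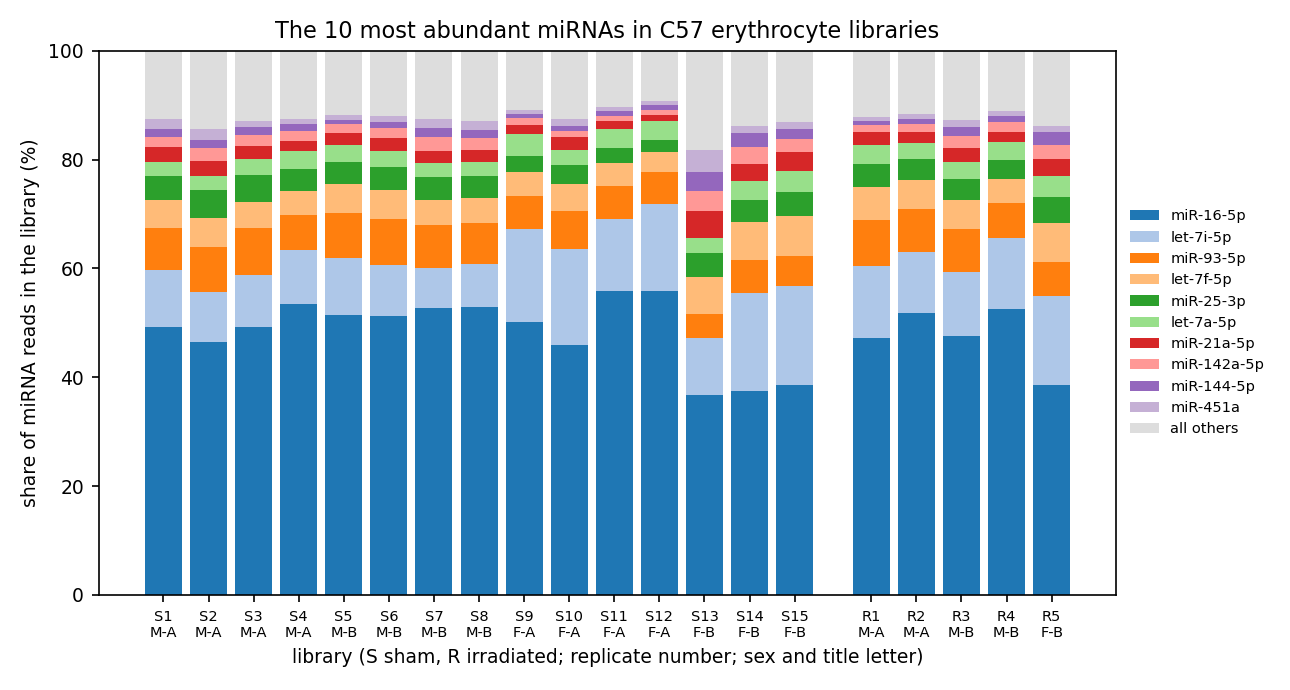
Share of miRNA reads (%) taken by the 10 miRNAs with the highest mean in sham mice, in each of the 15 sham (S) and 5 irradiated (R) erythrocyte libraries, with sex and title letter under each bar. The miR-16-5p share is 36.8 to 38.5% in the 4 females of letter B (S13, S14, S15, R5) and 45.9 to 55.9% elsewhere, in both groups.

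No erythroid or leukocyte marker passed the test between the groups. MiR-451a, a miRNA cut by Ago2 in place of Dicer, was at 6699, 8156, 13524, 9340 and 11217 RPM in irradiated replicates 1 to 5 and between 6796 and 41117 RPM in sham mice, with a median of 12004 RPM. The highest sham value was that of replicate 13, and without it the sham maximum was 19994 RPM. Irradiated replicate 1 was just below every sham mouse, 4 of the 5 were below the sham median, and the log2 difference of -0.45 (SE 0.27, 95% interval -1.0 to 0.10) did not pass the test, and it was -0.38 without sham replicate 13. The 5 erythroid markers (miR-451a, both arms of miR-144, miR-486a-5p and miR-486b-5p) had a median log2 difference of -0.00, with 2 higher and 3 lower, and summed to 3.56 to 11.2% of reads in sham mice (3.56 to 7.59% without replicate 13) and 4.10 to 6.41% in irradiated mice. MiR-486a-5p and miR-486b-5p are near-identical, and how reads shared by them were assigned was not given, so they are not treated as separate readings. In males miR-486a-5p was at 5546 to 8530 RPM in the 4 irradiated mice, below the 8696 to 14311 RPM of the 8 sham mice, while sham females were at 2750 to 7102 RPM and the irradiated female at 5248 RPM. Its mean over all mice was 6856 RPM in irradiated and 8065 RPM in sham mice, yet its quantile-normalised log2 difference was 0.12. The sign turned with the processing: the difference was -0.09 with TMM, -0.15 with library size alone, -0.12 with sex as a covariate and -0.22 in males alone (limma adjusted p = 0.891). Of the 229 miRNAs, 8 (3.49%) lay higher and 5 (2.18%) lower in irradiated males without overlap, let-7i-5p among the first and both miR-486 forms among the second. Leukocyte markers were present in every library: miR-142a-5p, a miRNA of all blood cell lineages, was among the 10 most abundant at 20089 ± 7745 RPM in sham (SD, n = 15) and 18448 ± 5120 RPM in irradiated mice (SD, n = 5). The 5 leukocyte markers summed to 1.77 to 4.52% and 1.91 to 2.95% of reads.

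Against the leukocyte (WBC) fraction, the markers bore out the RBC label only in part. The fit set 15 sham RBC libraries against 11 sham WBC libraries. The mice of the 11 were among the 15, and the fit did not pair the libraries by mouse. In sham mice the myeloid miR-223-3p was lower in RBC than in WBC by a log2 difference of -2.18 (limma adjusted p = 9.35e-08), miR-155-5p by -1.39 and miR-144-3p higher by 1.01 (limma adjusted p = 4.16e-08). MiR-451a, however, differed by -0.13 (95% interval -0.72 to 0.45) and miR-142a-5p was higher in RBC by 0.60. The other erythroid markers were at -0.20 (miR-144-5p), 0.26 (miR-486a-5p) and 0.35 (miR-486b-5p). MiR-150-5p was at -0.44 and miR-142a-3p at -0.02, all with limma adjusted p from 0.284 upwards. Erythroid markers summed to a median of 5.76% of reads in sham RBC and 5.52% in sham WBC, and leukocyte markers to 2.60% and 2.43%. Of 287 miRNAs tested between the sham fractions, 134 (46.7%) were called. What leukocytes or platelets added to each value was not tested. Fewer cells of a type and less RNA per cell cannot be told apart in such bulk samples. Markers of solid tissues varied in level. The cardiac muscle marker miR-208a-3p was at 0 in all 20 libraries, which allows up to 0.981 RPM, while miR-1a-3p, another muscle miRNA, reached 43.1 RPM in irradiated replicate 5 and 20.6 RPM in sham replicate 13, with no more than 3.53 RPM in the other sham libraries and with 0 to 0.784 RPM in the other 4 irradiated libraries. The liver miRNA miR-122-5p ranged from 0.317 to 71.4 RPM in sham and from 0.559 to 17.6 RPM in irradiated mice, but with miR-192-5p and miR-194-5p the liver list summed to 564 to 1749 RPM and 724 to 1307 RPM. The 5 epithelial markers summed to 179 to 996 RPM in sham and 180 to 426 RPM in irradiated mice, and both arms of miR-126a, of endothelium and platelets, to 828 to 1966 RPM and 936 to 2140 RPM. The part of these tissues in the results was not tested.

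By limma, the main test, no miRNA was called for irradiated against sham mice. A miRNA was called at a Benjamini-Hochberg adjusted p under 0.05 together with a fold of at least 2.25 (1.17 on the log2 scale), the fold minimum of the study. With limma on quantile-normalised log2 RPM, 0 of 229 were called (0%), the smallest adjusted p was 0.687, and 14 (6.11%) had an unadjusted p under 0.05, 10 higher (4.37%) and 4 lower (1.75%) in irradiated mice. The groups overlapped for every miRNA tested: none of the 229 had all irradiated values above, or all below, the sham values. The data limited what could have been missed. For 176 of the 229 (76.9%) the whole 95% interval lay inside the 2.25-fold minimum, and for 147 (64.2%) inside 2-fold either way. edgeR's quasi-likelihood test and DESeq2 each called 1 miRNA (0.437%), miR-182-5p in both, with 15 (6.55%) and 14 (6.11%) miRNAs at an unadjusted p under 0.05.

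**Figure D2:**
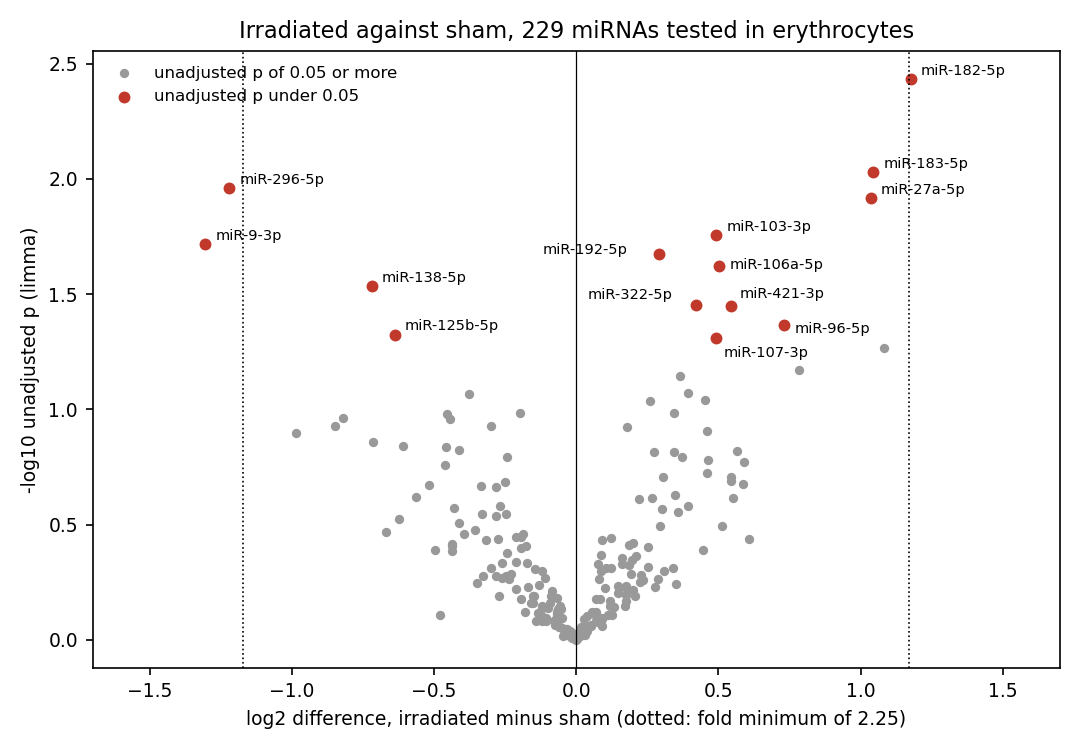
Log2 difference (irradiated minus sham, x axis) against -log10 unadjusted limma p (y axis) for the 229 miRNAs tested in C57 erythrocytes, with the 14 miRNAs with p under 0.05 named in red. MiR-182-5p has the smallest p, and 3 miRNAs lie past the 2.25-fold lines, none with an adjusted p under 0.687.

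The miR-183 cluster, known for its expression in sensory cells and for repressing Foxo genes, gave the leading miRNAs. MiR-182-5p was at 44.9, 13.4, 12.6, 3.92 and 8.22 RPM in irradiated replicates 1 to 5 and between 1.65 and 9.41 RPM in sham mice, with a median of 5.56 RPM. Irradiated replicates 1, 2 and 3 were above all sham mice and replicate 4 below the sham median. The limma log2 difference was 1.18 (SE 0.38, 95% interval 0.41 to 1.94, unadjusted p = 0.00368, adjusted p = 0.687). edgeR gave 1.57 (adjusted p = 0.0291) and DESeq2 1.47 (adjusted p = 0.0405). Without irradiated replicate 1 the log2 difference was smaller, at 0.72 by edgeR, 0.67 by DESeq2 and 0.65 by limma, and both calls were lost. They were lost too without replicate 2 or replicate 3, while the log2 difference stayed at 1.43 and 1.46 by edgeR (adjusted p of 0.173 and 0.134) and at 1.52 and 1.56 by DESeq2 (adjusted p of 0.098 and 0.0641).

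MiR-183-5p was at 22.8, 10.3, 9.78, 6.01 and 7.04 RPM in the irradiated mice and between 1.34 and 13.5 RPM in sham mice, with a median of 4.77 RPM. All 5 irradiated mice were above the sham median, and 1 was above every sham mouse. Its log2 difference was 1.04 (SE 0.38, limma adjusted p = 0.687). MiR-96-5p was at 18.4, 7.29, 13.4, 4.96 and 11.4 RPM against 2.58 to 13.9 RPM in sham mice, with a median of 6.92 RPM and a log2 difference of 0.73 (SE 0.35, limma adjusted p = 0.801). The 3 members thus lay on the same side, with 3 of 3 at an unadjusted p under 0.05, against 14 of all 229 (6.11%), and a median of 1.04 against -0.00 over all 229. The 3 are made from 1 transcript and are not independent. All were rare: they summed to 0.00127 to 0.00265% of reads in sham libraries.

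Sex and title letter moved with several of these miRNAs, so the irradiated mice were also set beside sham mice of the same sex and letter. MiR-196b-5p, which lies in the Hoxa cluster, represses Hox genes and is expressed in blood progenitors, showed the widest split. It was at 24, 24.2, 25.1, 38.7 and 17 RPM in the irradiated mice and between 4.94 and 34.1 RPM in sham mice, with a median of 9.29 RPM. The high sham values were all from females of letter A, at 18 to 34.1 RPM, the combination with no irradiated mouse. Sham males of letter A were at 5.96 to 12.3 RPM against 24 and 24.2 in irradiated ones, sham males of letter B at 6.77 to 9.90 RPM against 25.1 and 38.7, and sham females of letter B at 4.94 to 9.29 RPM against 17 RPM. Each irradiated mouse was thus above every sham mouse of its own sex and letter, a pattern singled out after the values were seen and shared by 4 of the 229 miRNAs (1.75%), while 1 (0.437%), miR-484, showed the opposite. The others were let-7b-5p, let-7c-5p and miR-1958. Across all sham mice the log2 difference was 1.08 (SE 0.54, 95% interval -0.02 to 2.19, limma unadjusted p = 0.0539, adjusted p = 0.824).

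**Figure D3:**
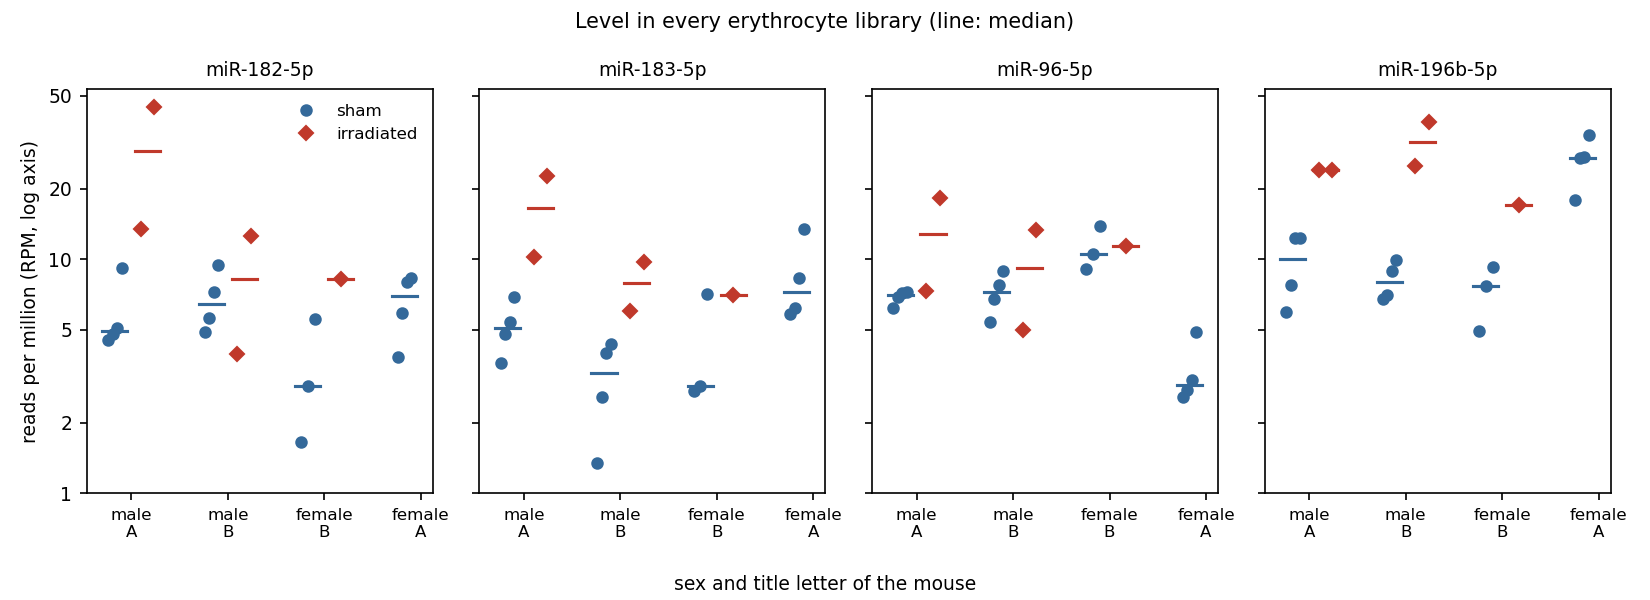
Level (RPM, log axis) of miR-182-5p, miR-183-5p, miR-96-5p and miR-196b-5p in every C57 erythrocyte library, by sex and title letter, with sham mice as blue circles, irradiated mice as red diamonds and the median of each as a line. For miR-196b-5p the irradiated mice (17 to 38.7 RPM) lie above the sham mice of their own column, while sham females of letter A, with no irradiated counterpart, reach 34.1 RPM.

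Fits with the combination of sex and letter as a covariate were added after these values were seen. On the C57 RBC libraries alone, limma then called 2 of 209 miRNAs (0.957%), miR-196b-5p with a log2 difference of 1.49 (SE 0.20, adjusted p = 0.000182) and miR-183-5p with 1.26 (SE 0.25, adjusted p = 0.00942). MiR-484 reached an adjusted p of 0.0154 in that limma fit at -0.84, under the fold minimum, and made 3 (1.44%) by adjusted p alone. MiR-196b-5p was called in 20 of 20 fits that each left out 1 library, with log2 differences of 1.29 to 1.61, and miR-183-5p in 18 of 20, lost without irradiated replicate 1 (1.10, limma adjusted p = 0.0828) and without sham replicate 4, where 1.17 (limma adjusted p = 0.0222) lay just under the fold minimum. Among the 20 were 4 fits that left out a sham female of letter A, a combination with no irradiated mouse. Such fits could hardly move the estimate, and miR-196b-5p stayed at 1.49 in each. edgeR called the same 2 (0.957%), and DESeq2 called 4 (1.91%), these and miR-182-5p (1.37, adjusted p = 0.00984) and miR-296-5p (-1.22, adjusted p = 0.0215). When the C3H RBC libraries shared the fit, limma called 0 of 229 (0%), with 23 (10%) at an unadjusted p under 0.05 and miR-196b-5p at 1.48 (adjusted p = 0.156), and edgeR called 4 (1.75%). The calls were thus made with a covariate chosen with the data in view and differed with the libraries in the fit, which also changed the miRNAs tested and the normalisation.

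MiR-542-3p, the last of the 4 called by edgeR in that joint fit, was high in sham females of both letters. It was at 87.8, 24.4, 30.2, 27.4 and 45.2 RPM in irradiated mice. Sham males were at 8.56 to 23.7 RPM, below all 4 irradiated males, while sham females were at 22.9 to 73.4 RPM. The log2 difference was 0.56 (SE 0.38) without and 0.92 (SE 0.33) with the covariate, both by limma over all RBC libraries. MiR-484 was at 12 to 16.8 RPM in the irradiated males, below the 17.2 to 31.8 RPM of the 8 sham males, and at 22.0 RPM in the irradiated female against 25 to 43.1 RPM in sham females of letter B. Sham females of letter A were lower than all of these, at 4.97 to 10.4 RPM.

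Among miRNAs with a sham mean above 100 RPM the largest log2 difference with an unadjusted p under 0.05 was that of miR-103-3p. With miR-107-3p it forms a family from introns of the Pank genes, which make coenzyme A, and it is known to repress Dicer. MiR-103-3p was at 13283, 11380, 12362, 8996 and 12595 RPM in irradiated mice and between 5874 and 11986 RPM in sham mice, with a median of 9869 RPM. Irradiated replicates 1, 3 and 5 were above all sham mice and replicate 4 below the sham median. The log2 difference was 0.49 (SE 0.20, 95% interval 0.09 to 0.89, limma adjusted p = 0.687). Sex and letter moved with this miRNA: sham females of letter A were at 5874 to 8514 RPM and sham males at 8281 to 11986 RPM. The limma log2 difference was 0.83 for letter A alone (adjusted p = 0.000216, under the fold minimum) and 0.15 for letter B alone, 0.37 in males alone, and 0.38 with sex and letter as a covariate on C57 alone (adjusted p = 0.332). MiR-107-3p, at 3.92 to 7.63 RPM against 1.96 to 5.70 RPM, differed by 0.49 (SE 0.24). It had 6 to 28 reads a library against 17967 to 56457 for the near-identical miR-103-3p, and whether its reads were misassigned ones of miR-103-3p cannot be told apart, so it is no separate support. Both intervals ended below the fold minimum.

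The other miRNAs with higher values were small in size or rare. MiR-27a-5p, the lesser arm of the miR-27a hairpin, was at 4.47, 3.19, 2.51, 3.40 and 3.23 RPM against 0.309 to 4.44 RPM in sham mice (median 1.7 RPM), a log2 difference of 1.04 (SE 0.39). Its values rested on at most 19 reads a library. MiR-192-5p, a miRNA of liver and gut, was at 611 to 1148 RPM against 479 to 1496 RPM, a log2 difference of 0.29 (SE 0.12). MiR-106a-5p, of the X-linked miR-106a-363 cluster, differed by 0.50 (SE 0.21) and miR-322-5p by 0.42 (SE 0.19), with limma adjusted p of 0.687 and 0.743. MiR-322-5p lies in an X-linked cluster with miR-503, miR-542 and miR-450b, of whose 7 tested mature forms 6 were higher, with a median of 0.42 and 1 at an unadjusted p under 0.05. Over all 229, 113 were higher and 14 (6.11%) had an unadjusted p under 0.05. The 7 include both arms of miR-503, miR-542 and miR-450b and are not independent readings. MiR-421-3p, named here because it was the last of the 10 higher miRNAs, was at 24.6 to 52.2 RPM against 14.5 to 53.4 RPM, a log2 difference of 0.55 (SE 0.25).

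Of the 4 miRNAs with lower values at an unadjusted p under 0.05, 3 were rare. MiR-296-5p was at 4.0, 2.51, 0.559, 4.96 and 3.23 RPM in irradiated mice and between 2.85 and 11.9 RPM in sham mice, with a median of 6.15 RPM. All 5 irradiated mice were below the sham median and 2 were below every sham mouse. The log2 difference was -1.22 (SE 0.45, limma adjusted p = 0.687). MiR-9-3p, a miRNA of neurons, was at 0 to 0.784 RPM in irradiated mice and 0 to 4.67 RPM in sham mice, at most 17 reads in any library, with a fitted log2 difference of -1.30 (SE 0.53). MiR-138-5p was at 0.838 to 2.74 RPM against 0.981 to 5.73 RPM, with -0.72 (SE 0.32). MiR-125b-5p, a miRNA of blood stem cells, was at 18.4, 17.3, 18.2, 16.2 and 24.1 RPM against 12 to 57.6 RPM (median 22.2 RPM), with -0.64 (SE 0.31, limma adjusted p = 0.801).

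MiRNA families and pathway lists showed few common shifts, and none had a member called by limma without the covariate. The 4 tested members of the miR-99/100 and miR-125 families, which include repressors of p53 and of mTOR, were all lower, with log2 differences of -0.72 to -0.50 and a median of -0.58. Of these, 1 had an unadjusted p under 0.05, and miR-100-5p was too rare to test. Over all 229, 116 were lower and 14 (6.11%) had an unadjusted p under 0.05. On chromosome 17 the cluster of miR-99b-5p, let-7e-5p and miR-125a-5p had 3 of 3 members lower and a median of -0.72, the lowest of the 16 clusters with 3 or more tested members. With sex and letter as a covariate on C57 alone this median was -0.36 and that of the miR-99/100 and miR-125 families -0.36. The neuronal list had a median of -0.78 without the covariate, over miR-9-3p and miR-9-5p. Only miR-9-5p was tested in the covariate fit on C57 alone, at -0.24, against -0.26 without the covariate. The miR-30 family, of which 4 of 5 members were lower, had a median of -0.27, and the miR-29 family, repressors of collagen genes, -0.24 with 3 of 3 lower. No member of either had an unadjusted p under 0.05. MiR-181, miR-26, miR-17-92 with miR-106b-25, and miR-15/16 had medians of -0.08, -0.06, -0.03 and -0.02, and miR-23/24/27, miR-101 and let-7 medians of 0.18, 0.05 and 0.02.

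**Figure D4:**
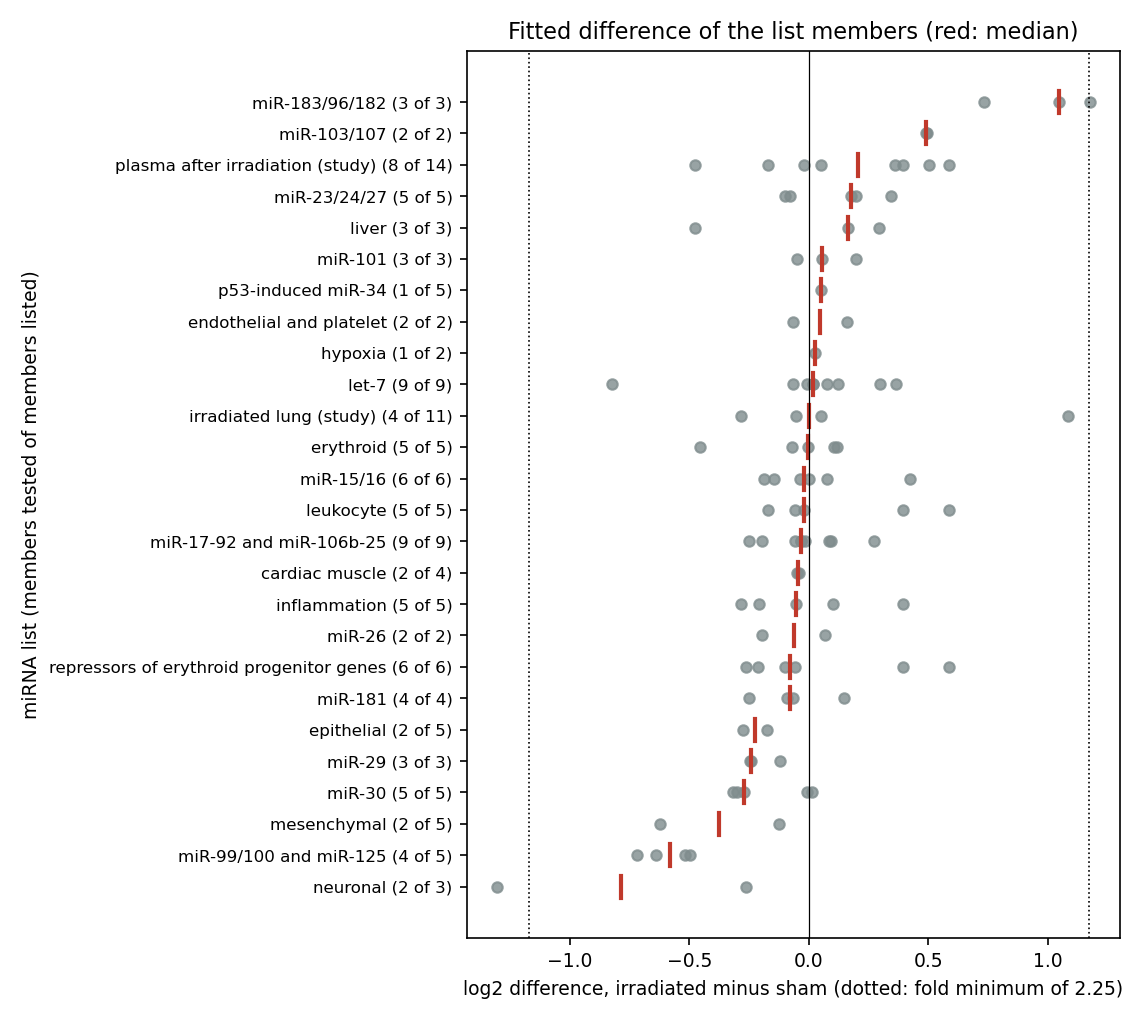
Fitted log2 difference (irradiated minus sham, x axis) of the tested members of 26 miRNA lists (rows, with members tested of members listed), each point a miRNA and the red line the list's median. The miR-183 cluster (median 1.04) and the miR-103 and miR-107 family (0.49) lie highest, and neuronal (-0.78) and miR-99/100 and miR-125 (-0.58) lowest.

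MiRNAs linked to DNA damage, inflammation and low oxygen did not separate the groups. MiR-34a-5p, which p53 induces, was at 42.8, 26.7, 26.3, 29 and 15.6 RPM in irradiated mice and between 11.4 and 64.6 RPM in sham mice, with a median of 26.9 RPM. Its log2 difference was 0.05 (95% interval -0.60 to 0.71), inside 2-fold in either direction. Its sign turned with sex: sham males were at 24.6 to 64.6 RPM and sham females at 11.4 to 26.9 RPM, and the limma difference was -0.14 in males alone and -0.20 with sex and letter as a covariate on C57 alone. The other 4 forms, from miR-34b and miR-34c, were under the filter, at no more than 1.92 RPM in any library. MiR-21a-5p, which rises in inflammation and fibrosis, was at 24471 ± 9139 RPM in sham (SD, n = 15) and 24109 ± 4725 RPM in irradiated mice (SD, n = 5), a log2 difference of -0.05 (95% interval -0.38 to 0.27). The 5 inflammation miRNAs had a median of -0.05, and the hypoxia miRNA miR-210-3p differed by 0.02 (95% interval -0.42 to 0.47). MiR-150-5p, of mature lymphocytes, was at 162, 199.5, 95, 215.5 and 77.8 RPM against 20.1 to 278 RPM, a log2 difference of 0.59 (95% interval -0.35 to 1.52). Sex moved with this value: sham males were at 92.9 to 278 RPM and sham females at 20.1 to 86.7 RPM, and the irradiated group held mostly males. In males alone the limma log2 difference turned to -0.19 (adjusted p = 0.891), and with sex and letter as a covariate on C57 alone it was 0.01.

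A list of 11 miRNAs named by the study or an earlier analysis as changed in irradiated lung had 4 members tested in erythrocytes, with a median of -0.00. They were miR-21a-5p, miR-21a-3p, miR-34a-5p and miR-196b-5p, with log2 differences from -0.28 to 1.08, the highest that of miR-196b-5p. MiR-21a-5p made up most of the list's reads here. The other 7 members were rare, at no more than 1.65 RPM in any library except miR-216a-5p in sham replicate 13 (32.7 RPM): miR-7b-5p was at 0 to 1.04 RPM and miR-10b-5p at 0 to 0.235 RPM in the irradiated mice. In the lungs of C57 mice miR-196b-5p was at 0 to 0.634 RPM in sham and at 2.31 to 9.21 RPM in irradiated mice, a fitted log2 difference of 3.18 (limma adjusted p = 9.55e-08), with 21 of 350 miRNAs called in that tissue (6%). The list was chosen on libraries of this series and is not independent evidence. Of 14 of the miRNAs that the study named for plasma, a selection and not its full set, 8 were tested in RBC, with a median of 0.21, 5 higher and 3 lower, and 1 (miR-106a-5p) at an unadjusted p under 0.05. Over all 229 miRNAs tested, 113 were higher, 116 lower and 14 (6.11%) at an unadjusted p under 0.05.

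The leukocyte fraction of the same 5 irradiated mice gave a further reading of the miR-183 cluster. MiR-182-5p was at 28.9, 13.3, 10.5, 4.29 and 11.7 RPM in WBC of irradiated replicates 1 to 5 and between 2.43 and 11.7 RPM in 11 sham mice. MiR-183-5p was at 45.5, 26.2, 14, 4.90 and 12.5 RPM against 3.65 to 18.5 RPM. For both, replicates 1 and 2 were above all sham mice and the other 3 were not. Replicate 1 was the highest and replicate 4 the lowest irradiated mouse for all 3 members of the cluster in WBC, and in RBC likewise. The WBC log2 differences were 0.91 for miR-182-5p, 0.94 for miR-183-5p and 1.67 for miR-96-5p (SE 0.54, 0.43 and 0.48, limma adjusted p of 0.781, 0.730 and 0.213), and 0 of 287 miRNAs were called in WBC (0%), where 18 (6.27%) had an unadjusted p under 0.05, against 13 (4.53%) in RBC by the same fit. Both fractions came from 1 bleed of each mouse and are not independent samples. MiR-196b-5p was at 25.4, 40.2, 18.7, 39.5 and 59.3 RPM in WBC against 14.6 to 71.2 RPM, a log2 difference of 0.43 (SE 0.39).

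The test of the difference between the fractions called 0 of 287 miRNAs (0%), by limma, edgeR and DESeq2, and 3 (1.05%) had an unadjusted limma p under 0.05, none with an adjusted p under 1. The 3 were miR-335-5p (difference of 1.58, SE 0.54), miR-142a-5p (-0.44, SE 0.20) and miR-107-3p (0.66, SE 0.30). MiR-335-5p was at no more than 1.65 RPM in any RBC library.

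C3H mice, sampled in month 4, gave the same comparison in another strain, with 7 irradiated and 8 sham females. Strain, month and the sex of the mice cannot be told apart between the strains. With limma 0 of 229 miRNAs were called in C3H RBC (0%), with 43 (18.8%) at an unadjusted p under 0.05. The test of the difference between the strains called 0 (0%), and 12 (5.24%) had an unadjusted p under 0.05, with adjusted p from 0.760 upwards. MiR-182-5p was at 1.41 to 4.37 RPM in irradiated and 2.13 to 5.02 RPM in sham C3H mice, a log2 difference of -0.13 (SE 0.47), and its difference between the strains was 1.31 (SE 0.61, 95% interval 0.08 to 2.54, limma adjusted p = 0.760). MiR-183-5p was higher by 0.99 (SE 0.45) in C3H, near the 1.04 of C57, with a difference of 0.06 (95% interval -1.13 to 1.25). MiR-196b-5p was at 39.8 to 273 RPM in irradiated and 19 to 57.7 RPM in sham C3H mice, a log2 difference of 1.68 (SE 0.49, limma adjusted p = 0.130), and its difference between the strains was -0.59 (95% interval -2.08 to 0.89). The strains therefore shared the side of the miR-183-5p and miR-196b-5p values, with no call in either by limma without the covariate, and the miR-103-3p values, at -0.13 (SE 0.20) in C3H, lay on opposite sides.

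**Figure D5:**
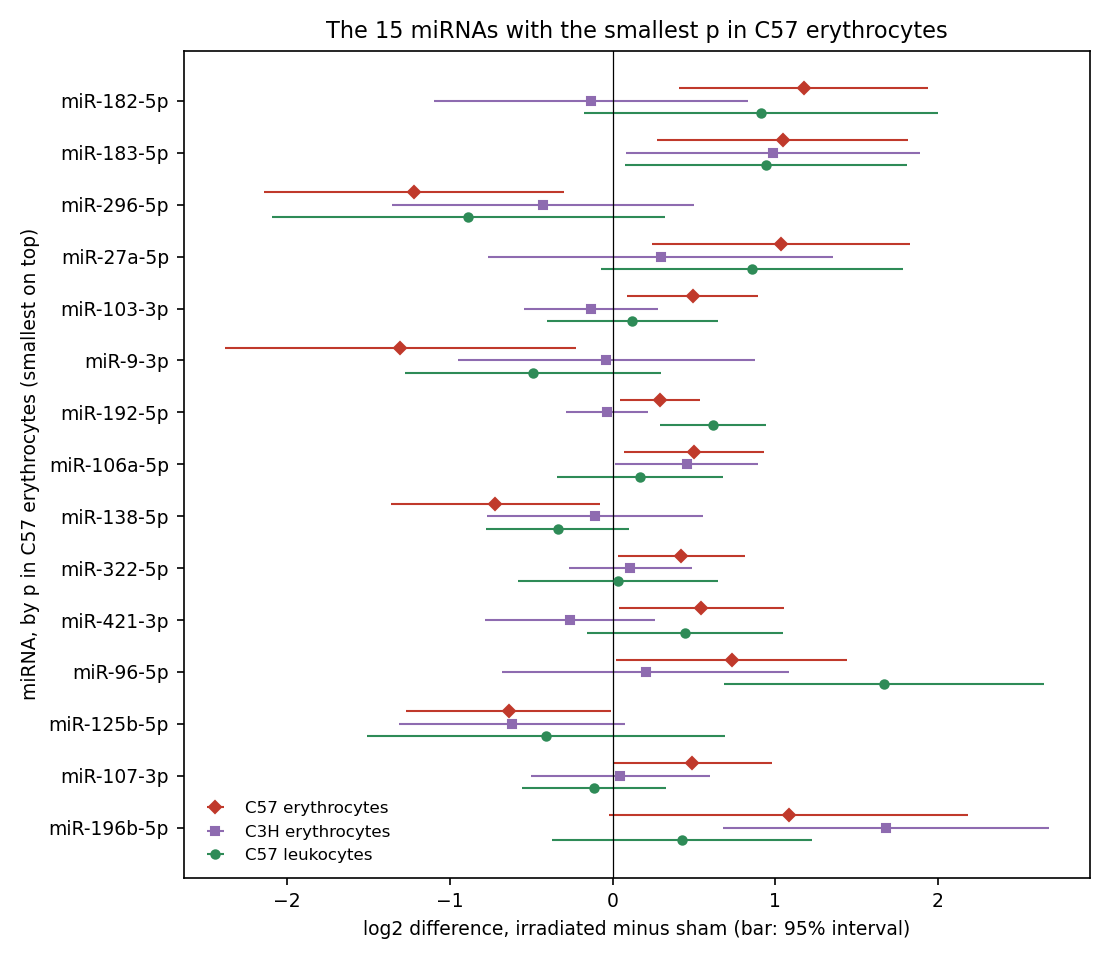
Log2 difference with 95% interval (irradiated minus sham, x axis) for the 15 miRNAs with the smallest p in C57 erythrocytes (rows), in C57 erythrocytes (red diamonds), C3H erythrocytes (purple squares) and C57 leukocytes (green circles, fitted jointly with C57 erythrocytes). MiR-183-5p lies near 1 in all 3, while miR-182-5p is at 1.18, -0.13 and 0.91.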

How the data were processed

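Small RNA libraries of the RBC fraction were prepared with a kit for miRNA sequencing. The authors trimmed the reads, aligned them to mouse miRNAs (mm10) and dropped libraries yielding too few miRNA reads. For each library they deposited raw counts, without normalisation, for 1915 mature miRNAs. The use of molecular identifiers and the handling of reads shared by near-identical miRNAs were not given in the sources used here, so the limits given for a count of 0 cover counting error only. The 95% intervals are limma's and cover the spread between mice.

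From these counts RPM were computed by library total. MiRNAs passing edgeR's filterByExpr (count minimum 10, total minimum 15) were tested with limma 3.58.1 on voom log2 RPM with quantile normalisation, as in the study, over 35 RBC libraries of both strains, with 1 coefficient per group. C57 RBC and WBC were fitted jointly. Adjusted p-values are Benjamini-Hochberg over all miRNAs tested. edgeR 4.0.16 and DESeq2 1.42.0 on the counts, voom with TMM or library size, other filters, sex, letter or both as covariates and left-out libraries were alternatives. Lists were described by counts and medians only. Named miRNAs were the 10 most abundant, the 10 with the smallest p, the leading and most abundant member of each list, 3 per interaction, called ones and markers. The members, lists and rules were chosen with earlier results of these data known. The fits were tested on simulated counts. R 4.3.3 and Python 3.11.15 were used.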

Additional observations from a re-analysis of the deposited data

Results flagged for a closer look

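In the irradiated group, 60 quantities were examined for a mouse far from the other 4, and 6 were found. Chance marks about 1 in 20 groups in this way. Irradiated replicate 1 stood far above the others for miR-182-5p (44.9 RPM) and miR-183-5p (22.8 RPM). Irradiated replicate 5, the only irradiated female, stood far above the others for miR-143-3p (23.2 RPM), miR-30a-5p (3827 RPM), miR-125b-5p (24.1 RPM) and miR-1a-3p (43.1 RPM). For miR-143-3p, miR-30a-5p and miR-125b-5p these values lay inside the sham range, while that of miR-1a-3p lay above the highest sham value, 20.6 RPM in replicate 13, with 3.53 RPM the highest in the other sham mice.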

How the results depend on the processing

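The count of called miRNAs for irradiated against sham was 0 by limma and 1 by edgeR, by DESeq2 and for letter A alone (miR-182-5p in each), 1 with the looser filter, and with sex and letter as a covariate 2 by limma and by edgeR on C57 alone, 4 by edgeR on all RBC and 4 by DESeq2. Leaving out 1 library gave 0 by limma, and 1 to 4 under the covariate on C57 alone. By edgeR and by DESeq2 only irradiated libraries were left out, 1 at a time, which gave 0 to 1. The looser filter's call was miR-7079-3p, at 0 to 2 reads in every library. Without the 4 females of letter B, or without sham replicate 13, the limma count stayed 0, and miR-182-5p was at 1.12 and 1.03. The difference between strains had 1 call by DESeq2 (miR-1981-5p) and 1 with the looser filter (miR-7079-3p). The difference between RBC and WBC had 0 calls under all alternatives run, the animal as a replicate block included, where 3 had an unadjusted p under 0.05. Library scaling without quantiles moved the median difference from -0.00 to -0.03, and TMM to 0.04. For 58 named miRNAs, 2528 of 2812 values kept the sign, and 19, of 5 miRNAs, were called. The difference in total reads turned to -172385 for letter B alone, and that in detected miRNAs to 10.1 for letter A alone and 1.44 without sham replicate 13, from -6.72 to -0.967 without 1 irradiated replicate. With 5 irradiated mice the median 95% interval reached 0.63 on the log2 scale either way. The causes of these shifts were not tested.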
